A study of Mus musculus with 6 samples.

Results

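Lipoprotein receptors and vascular lipases were examined in Hepa1-6 cells, a mouse hepatoma line derived from a C57/L mouse, with and without knockdown of midnolin (Midn). The members were taken by gene name from the deposited tables. All 9 were found among 25078 gene rows: the lipases Lpl, Lipc and Lipg, the lipase partners Gpihbp1 and Angptl4, the LDL receptor family members Lrp1, Lrp2 and Vldlr, and the HDL receptor Scarb1. Of the 6 ribosome-depleted RNA-seq libraries, 1 was from parental cells that received no treatment (wt), 2 were from cells transduced with lentivirus carrying a scramble vector (scr 25-2 and scr 50-1), and 3 were from cells transduced with lentivirus carrying midnolin shRNA (KD 25-3, KD 50-2 and KD 50-5). Both transduced groups were selected with puromycin and single-cell-derived colonies were isolated by limiting dilution, steps that the wt cells did not share. The titles of the knockdown libraries read KO although their treatment is an shRNA, and the labels give the source as liver although the material is a cell line. The labels neither name the clones nor explain the numbers 25 and 50, so p-values here measure the spread between these libraries, which may be that between clones or partly technical. The study describes fewer clones for RNA-seq than there are knockdown and scr libraries, with a single scr control clone, so each n counts libraries, and libraries of a group, the scr libraries above all, may share a clone.

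Lipoprotein lipase and its relatives hydrolyse triglycerides and phospholipids of circulating lipoproteins at the vessel wall. The remnants and the cholesterol that they leave are taken up by liver cells through receptors of the LDL receptor family, through heparan sulfate and, for HDL, through scavenger receptor class B type I. Adult hepatocytes are known for hepatic lipase, whereas lipoprotein lipase is known mainly from adipose tissue, muscle and macrophages and is present in fetal liver.

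The 2 lipases that lay at opposite ends of the expression range, Lpl and Lipc, come from 1 gene family, and a stretch of their coding sequence is shown because reads of close copies could be assigned to the wrong gene. Across 1354 aligned coding bases, Lpl and Lipc were 71.0% identical. The gap-free window of 60 bases that matched best in this alignment held 44 identical bases. The windows are in exon 6 of Lpl (chr8:68896719-68896778, plus strand, GRCm38) and in exon 6 of Lipc (chr9:70812733-70812792, minus strand, GRCm38). Capitals mark the bases that the 2 genes share.
Lpl: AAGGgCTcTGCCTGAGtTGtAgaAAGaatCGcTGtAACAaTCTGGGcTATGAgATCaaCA
Lipc: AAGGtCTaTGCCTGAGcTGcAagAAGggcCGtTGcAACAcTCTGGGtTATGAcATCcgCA
The lower-case letters show that mismatches are spread through the window. The longest exact run shared by Lpl and Lipc, at any place in their coding sequences, was 17 bases. The longest shared by any of the 36 pairs of members was 20 bases, between Lrp1 and Lrp2.

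RefSeq promoter sequences (GRCm38.p6) were at hand for 4 of the 9 members. The 250 bases before the start are shown for Lrp1, which was lower in knockdown libraries, for the first start of Vldlr, which did not pass the test, and for Lrpap1, the receptor chaperone that was lower together with Lrp1. Capitals mark matches to GGGCGG or its reverse complement CCGCCC. The Lrp1 window is chr10:127621149-127621398 (minus strand), the Vldlr window chr19:27216234-27216483 (plus strand) and the Lrpap1 window chr5:35105700-35105949 (minus strand).
Lrp1: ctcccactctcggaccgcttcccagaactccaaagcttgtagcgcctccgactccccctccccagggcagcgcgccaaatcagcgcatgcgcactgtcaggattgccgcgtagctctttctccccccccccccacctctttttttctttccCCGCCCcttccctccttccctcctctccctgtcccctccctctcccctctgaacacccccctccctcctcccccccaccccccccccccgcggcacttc
Vldlr: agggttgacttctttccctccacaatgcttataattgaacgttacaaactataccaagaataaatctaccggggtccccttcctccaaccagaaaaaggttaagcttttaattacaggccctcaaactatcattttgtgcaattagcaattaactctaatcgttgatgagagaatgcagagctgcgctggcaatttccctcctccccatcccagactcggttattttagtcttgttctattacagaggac
Lrpap1: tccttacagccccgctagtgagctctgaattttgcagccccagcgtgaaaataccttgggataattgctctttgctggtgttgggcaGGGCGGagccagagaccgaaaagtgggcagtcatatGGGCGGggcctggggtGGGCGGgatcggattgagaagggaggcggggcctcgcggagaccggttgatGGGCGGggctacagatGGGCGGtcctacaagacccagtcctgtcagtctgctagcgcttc
Of 6 motifs searched on both strands (the TATA box as TATAAA, the CCAAT box, the GC box as GGGCGG, the E-box as CACGTG, a sterol regulatory element and the PPAR direct repeat), GGGCGG was the only motif matched in these 3 windows, and none of its matches overlapped another. It matched 1 time in Lrp1, 99 bases before the start, 5 times in Lrpap1 and 0 times in the Vldlr window. These counts do not set called members apart, since among members that were not called the window of the second Vldlr start held 1 match, 42 bases before that start, Lrp2 held 2 matches and the second Lipc start held 1. It was held by 32.7% of all 32851 promoter windows of this length, against 33.8% for the CCAAT box, 12.4% for the TATA box, 6.02% for the E-box, 1.05% for the sterol regulatory element and 0.0335% for the PPAR direct repeat. A match describes the letters and is not a bound site.

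Each library held 25586301 to 33119710 counts, of which 10.1 to 13.1% belonged to the ribosomal RNA precursor Rn45s. The targeted gene Midn stood at 60.5 RPKM (reads per kilobase of exon, scaled to library size) in wt, 59.6 and 50.8 in scr 25-2 and scr 50-1, and 20.3, 21.8 and 22.1 in KD 25-3, KD 50-2 and KD 50-5. Midn fell by 1.38 on the log2 scale (SE 0.133, adjusted p = 0.00777), and without KD 50-2 the adjusted p was 0.0525. Throughout, adjusted p-values are from edgeR's quasi-likelihood test on counts with Benjamini-Hochberg adjustment over all genes that exceeded 1 RPKM in 1 or more of the libraries compared, and a gene was called changed at an adjusted p below 0.05 with a change of at least 1.5-fold. Hepatocyte markers were present, with 10 of 12 over 1 RPKM in at least 1 library, and their summed level was 3056 to 4143 RPKM in scr, 5429 in wt and 225 to 1025 in knockdown libraries. Alb, Afp, Trf and Fgb made up most of this sum. Not every marker was ordered like the sum. Apob stood at 3.00 and 1.07 RPKM in scr 25-2 and scr 50-1 and at 52.2, 37.8 and 4.37 in KD 25-3, KD 50-2 and KD 50-5. Hnf4a stood at 33.9 and 11.0 and at 65.5, 65.4 and 29.6 in the same libraries. Of the 12 markers, not all of which passed the filter, Ttr was called lower and Serpina1b higher. Over all genes tested, 10.6% were called. Serpina1b held 0 counts in both scr libraries and passed the filter only through KD 25-3 and KD 50-2. All libraries are of 1 cell line, and bulk RNA cannot tell fewer cells that express a marker from less of its RNA per cell. Whether the hepatocyte marker levels had a part in the results on the members was not tested.

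Midnolin knockdown was compared with the scramble vector to ask which of these genes differ when midnolin is reduced. Lpl and Lrp1 were 7.42-fold and 5.73-fold lower in the knockdown libraries, and Angptl4 and Scarb1 were 6.73-fold and 2.16-fold higher. Of the 9 members, 6 passed the filter on low values and 4 of these were called changed, 2 higher and 2 lower, where 10.6% of the 11577 genes tested were called (5.4% higher and 5.23% lower). The same 4 members were those in which the knockdown and scr libraries did not overlap, which held for 50.2% of all genes tested (25.7% higher and 24.5% lower). The median log2 difference of the 6 tested members was -0.57, and that of all genes tested was -0.0097. Vldlr and Lipg were tested and not called, and Lipc, Lrp2 and Gpihbp1 were below the filter.

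**Figure D1:**
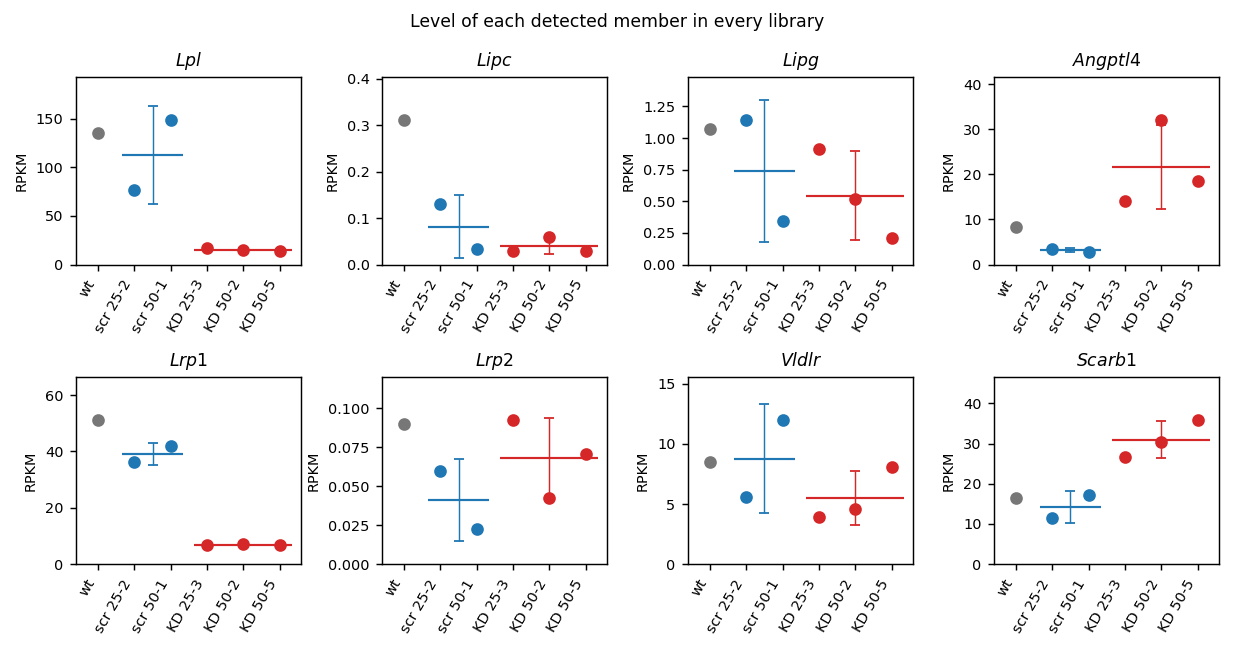
RPKM of the 8 detected members (linear axes from 0) in each library, with grey wt, blue scr and red knockdown (KD) points, a horizontal line at each group's mean and bars of 1 SD. Lpl and Lrp1 are lower in every knockdown library than in either scr library and Angptl4 and Scarb1 are higher, while the groups of the other 4 overlap.

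Among the lipases, Lpl encodes lipoprotein lipase, which hydrolyses the triglycerides of chylomicrons and VLDL. The gene lies at chr8:68880555-68906932 on the plus strand (mm10). Lpl stood at 135 RPKM in wt, at 76.9 in scr 25-2, at 148 in scr 50-1, and at 17.4, 14.8 and 13.7 in KD 25-3, KD 50-2 and KD 50-5. The knockdown values lay close together and well below every other library, while the 2 scr libraries differed 1.93-fold from each other. The group means were 112.6 ± 50.5 RPKM in scr (SD, n = 2) and 15.3 ± 1.93 in knockdown (SD, n = 3). Lpl fell by 2.89 on the log2 scale (SE 0.292, 95% interval -3.61 to -2.17, adjusted p = 0.00777, edgeR). The call was lost without KD 50-2 (adjusted p = 0.0548), and the log2 difference ranged from -3.28 without scr 25-2 to -2.34 without scr 50-1. Between libraries that share a number in their labels (1 against 1 for 25, 1 scr against 2 knockdown for 50), the log2 ratio of Lpl RPKM was -2.14 for 25 and -3.38 for 50.

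Lipc encodes hepatic lipase, the member of this family by which mature hepatocytes are best known. Lipc held 17 counts in wt, 8 and 2 counts in scr 25-2 and scr 50-1, and 2, 4 and 2 counts in KD 25-3, KD 50-2 and KD 50-5. These counts correspond to at most 0.311 RPKM, so that no difference was detectable at this depth, and 3 annotated genes overlap Lipc. In the fit without a filter, the log2 difference of Lipc was -1.03 (adjusted p = 0.514, edgeR). Lpl, from the same family, held 1831 to 17102 counts per library.

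Lipg encodes endothelial lipase, a phospholipase that acts mainly on HDL. It stood at 1.07 RPKM in wt, at 1.14 and 0.343 in scr 25-2 and scr 50-1, and at 0.911, 0.515 and 0.207 in KD 25-3, KD 50-2 and KD 50-5. The groups overlapped, and Lipg passed the filter only through scr 25-2. The log2 difference was -0.46 (SE 0.750, 95% interval -2.32 to 1.39, adjusted p = 0.714, edgeR), an interval that holds both a large decrease and a large increase. It ranged from -1.08 without scr 50-1 to -0.08 without KD 50-5 when a library was left out, and was -0.12 with the label number 25 or 50 added to the fit.

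Of the lipase partners, Gpihbp1 encodes the endothelial protein that carries lipoprotein lipase to the capillary lumen. No read was counted for Gpihbp1 in any of the 6 libraries, which allows a level of up to 0.110 to 0.139 RPKM per library (3 counts). Endothelial markers were near 0 in the same libraries. Their summed level over 10 genes was 0.215 to 0.226 RPKM in scr, 0.264 to 0.408 in knockdown and 2.95 in wt, where Pecam1 made up 2.85, and Lyve1, Erg and Sox17 had 0 counts throughout.

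Angptl4 encodes a secreted inhibitor of lipoprotein lipase and is a known target of PPAR nuclear receptors, of glucocorticoids and of hypoxia. It lies at chr17:33774900-33781575 on the minus strand (mm10). Angptl4 stood at 8.36 RPKM in wt, at 3.46 and 2.88 in scr 25-2 and scr 50-1, and at 14.1, 32.0 and 18.6 in KD 25-3, KD 50-2 and KD 50-5. Every knockdown library lay above both scr libraries and above wt, and the knockdown libraries spread more widely than for Lpl or Lrp1. The means were 3.17 ± 0.414 RPKM in scr (SD, n = 2) and 21.6 ± 9.31 in knockdown (SD, n = 3). Angptl4 rose by 2.75 on the log2 scale (SE 0.405, 95% interval 1.75 to 3.75, adjusted p = 0.0173, edgeR). The call was lost without KD 50-5 (adjusted p = 0.0575), with log2 differences of 2.36 to 2.98 when each library was left out in turn. With wt added to the controls, Angptl4 rose by 2.14 on the log2 scale. Its log2 RPKM ratio was 2.02 for the label number 25 and 3.14 for 50.

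The level of Lpl relative to that of Angptl4 combined both changes. The ratio of Lpl to Angptl4 RPKM was 16.1 in wt, 22.2 in scr 25-2 and 51.5 in scr 50-1. It was 1.24 in KD 25-3, 0.462 in KD 50-2 and 0.733 in KD 50-5. Lpl therefore exceeded its inhibitor at the transcript level in wt and scr libraries by a wide margin, whereas in 2 of the 3 knockdown libraries Angptl4 was the higher.

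**Figure D2:**
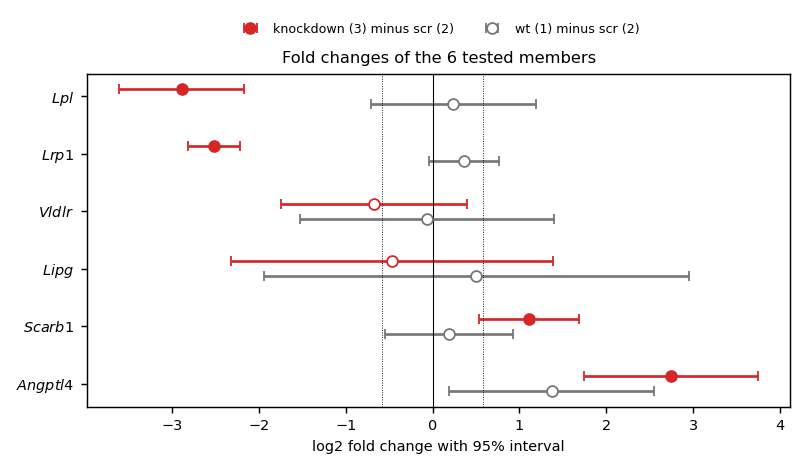
Log2 fold change of the 6 tested members, knockdown minus scr in red and wt minus scr in grey, with 95% intervals from edgeR, filled points for calls and dotted lines at a 1.5-fold change. The red intervals of Lpl, Lrp1, Angptl4 and Scarb1 do not reach 0, and those of Vldlr and Lipg do.

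Among the receptors, Lrp1 encodes a large endocytic receptor that clears remnant lipoproteins and many protease complexes in liver. The gene lies at chr10:127538158-127621148 on the minus strand (mm10). Lrp1 stood at 51.1 RPKM in wt, at 36.4 and 41.8 in scr 25-2 and scr 50-1, and at 6.94, 7.06 and 6.67 in KD 25-3, KD 50-2 and KD 50-5. The knockdown libraries all stood at 17.1 to 18.1% of the scr mean. The means were 39.1 ± 3.81 RPKM in scr (SD, n = 2) and 6.89 ± 0.201 in knockdown (SD, n = 3), the narrowest spread relative to its mean of any member detected in the knockdown libraries. Lrp1 fell by 2.52 on the log2 scale (SE 0.123, 95% interval -2.82 to -2.21, adjusted p = 0.00212, edgeR). It was called under all 14 alternatives tried, with log2 differences of -2.60 to -2.42 when each library was left out in turn, and its log2 RPKM ratio was -2.39 for the label number 25 and -2.61 for 50. An antisense gene, Gm16217, overlaps Lrp1, and no source used here says whether strand was used in counting, so reads of the pair may not be told apart.

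Vldlr encodes the VLDL receptor, which binds triglyceride-rich lipoproteins mainly outside the liver. Vldlr (chr19:27216484-27254231, plus strand, mm10) stood at 8.52 RPKM in wt, at 5.55 and 12.0 in scr 25-2 and scr 50-1, and at 3.90, 4.58 and 8.04 in KD 25-3, KD 50-2 and KD 50-5. KD 50-5 lay between the 2 scr libraries, which differed 2.16-fold from each other. The log2 difference was -0.68 (SE 0.434, 95% interval -1.75 to 0.39, adjusted p = 0.336, edgeR), and it ranged from -1.12 to -0.02 when each library was left out in turn. A decrease to about the size of the lower bound or a small increase is within that interval.

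Lrp2 encodes megalin, an endocytic receptor of kidney and other absorptive epithelia. Lrp2 held 36 counts in wt, 27 and 10 counts in scr 25-2 and scr 50-1, and 45, 21 and 36 counts in KD 25-3, KD 50-2 and KD 50-5. With at most 0.0923 RPKM it was below the filter, and in the fit without a filter its log2 difference was 0.72 (adjusted p = 0.513, edgeR).

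Scarb1 encodes the scavenger receptor that takes up cholesteryl esters from HDL. It lies at chr5:125277087-125341094 on the minus strand (mm10). Scarb1 stood at 16.5 RPKM in wt, at 11.4 and 17.1 in scr 25-2 and scr 50-1, and at 26.8, 30.4 and 35.8 in KD 25-3, KD 50-2 and KD 50-5. All knockdown libraries were above all others. The means were 14.3 ± 4.01 RPKM in scr (SD, n = 2) and 31.0 ± 4.57 in knockdown (SD, n = 3). Scarb1 rose by 1.11 on the log2 scale (SE 0.231, 95% interval 0.54 to 1.68, adjusted p = 0.0394, edgeR). This call was the closest to the threshold of the 4. It was lost when any 1 knockdown library was left out, with adjusted p-values of 0.0912 without KD 25-3, 0.132 without KD 50-2 and 0.105 without KD 50-5. The log2 RPKM ratio was 1.23 for the label number 25 and 0.95 for 50. Gm42633 overlaps Scarb1 on the same strand, so reads where they overlap cannot be told apart by strand.

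The order of the members by RPKM differed between the groups. In wt and in both scr libraries, Lpl was highest, followed by Lrp1 and Scarb1. Lpl made up 61.1% of the summed RPKM of the members in wt, 56.9% in scr 25-2 and 66.7% in scr 50-1. In KD 25-3 and KD 50-5, Scarb1 was highest, and in KD 50-2 Angptl4 was highest with Scarb1 next. Lpl then made up 24.9, 16.5 and 16.4% of the sum in KD 25-3, KD 50-2 and KD 50-5. The summed level was 221 RPKM in wt, 135 and 222 in scr 25-2 and scr 50-1, and 70.1, 89.4 and 83.2 in KD 25-3, KD 50-2 and KD 50-5.

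Neighbouring places in this order were not all separated beyond their spread. Within each scr library the order was Lpl, Lrp1, Scarb1, Vldlr and Angptl4. Over the scr libraries together, the ranges of Scarb1 (11.4 to 17.1 RPKM) and Vldlr (5.55 to 12.0 RPKM) overlapped and those of the other neighbours in this order did not. Over the knockdown libraries together, the ranges of Scarb1 and Angptl4 overlapped, as did those of Angptl4 and Lpl and those of Lrp1 and Vldlr. The ratio of Lrp1 to Scarb1 RPKM, which sets a remnant receptor beside the HDL receptor, was 3.10 in wt, 3.19 and 2.45 in scr 25-2 and scr 50-1, and 0.259, 0.232 and 0.186 in KD 25-3, KD 50-2 and KD 50-5.

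**Figure D3:**
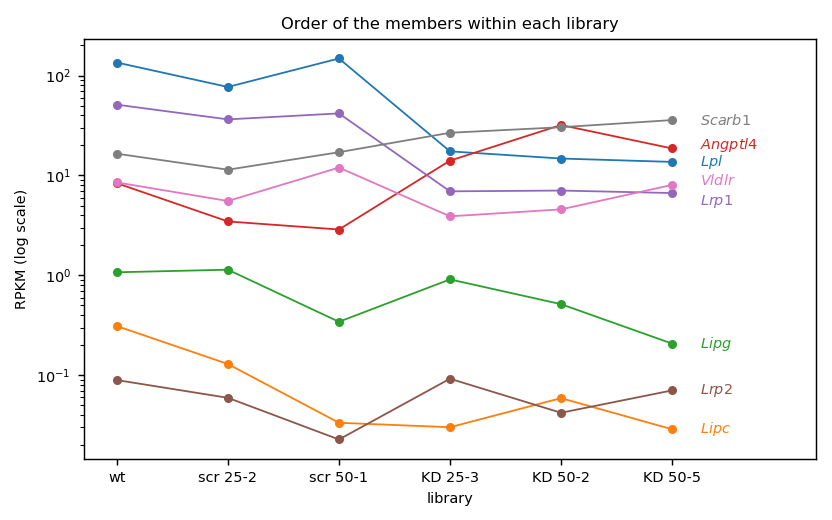
RPKM of each member on a log axis in the 6 libraries, where lines only link the points of 1 gene. Lpl is the highest line in wt and both scr libraries, and Scarb1 or Angptl4 is the highest in each knockdown library.

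The wt library was compared with the scr libraries to see how far the members differ between cells with and without a vector. The comparison shares the scr libraries with the knockdown comparison, and the single wt library was assumed to vary like the others. None of the 6 members tested was called by edgeR or DESeq2, and Angptl4 was the only 1 at an unadjusted p below 0.05. Over all genes, edgeR called 0 of 11647 (0.0%), with 899 genes (7.72%) at an unadjusted p below 0.05 and 128 called by DESeq2. Angptl4 was 8.36 RPKM in wt, 2.64 times the scr mean, and its log2 difference was 1.37 (SE 0.476, 95% interval 0.19 to 2.55, adjusted p = 0.638, edgeR). The log2 difference of Lrp1 was 0.36 (95% interval -0.04 to 0.76) and that of Lpl was 0.24 (95% interval -0.71 to 1.19). That of Scarb1 was 0.19 (95% interval -0.55 to 0.93).

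Among 17 other genes of the LDL receptor family and its adaptors, 14 were tested and 2 were called, both lower, and the median log2 difference was -0.32. Over all genes tested, 10.6% were called and 5.23% were called lower. Lrpap1, the chaperone that keeps ligands off newly made LDL receptor family proteins, stood at 10.7 RPKM in both scr libraries and at 5.20, 5.10 and 5.16 in KD 25-3, KD 50-2 and KD 50-5. Lrpap1 fell by 1.07 on the log2 scale (SE 0.141, adjusted p = 0.0139, edgeR). Lrp4, a receptor of the same family known from the neuromuscular junction and bone, fell by 1.43 on the log2 scale (SE 0.156, adjusted p = 0.00938, edgeR), and was 3.76 RPKM in wt beside 8.60 and 7.34 in scr 25-2 and scr 50-1. Lrpap1 was not called without any 1 knockdown library (adjusted p = 0.0682 without KD 25-3, 0.0830 without KD 50-2 and 0.0551 without KD 50-5), and Lrp4 was not called without KD 25-3 (adjusted p = 0.0549). Lrp8, the reelin receptor ApoER2, was not called (log2 difference -0.22, SE 0.353, adjusted p = 0.713, edgeR).

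Among 17 further lipases and genes of lipase maturation, 13 were tested and 1 was called, with a median of -0.30. The called gene was Pnliprp2, a pancreatic lipase relative, with 0 and 1 counts in scr 25-2 and scr 50-1 and 386, 569 and 494 counts in KD 25-3, KD 50-2 and KD 50-5. Pnliprp2 passed the filter only through the knockdown libraries. Set against 3 counts per scr library, its log2 difference was at least 7.17. Lmf1, the endoplasmic reticulum factor needed to fold lipoprotein and hepatic lipase, did not pass the test (log2 difference -0.64, SE 0.182, adjusted p = 0.0758, edgeR).

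Of 13 gene names listed for regulators of lipases, 12 were in the tables and 6 were tested, with 1 called and a median of 0.04. The called gene was Apoc1, an apolipoprotein that inhibits lipoprotein lipase, at 2.27 and 1.14 RPKM in scr 25-2 and scr 50-1 and at 0.229, 0.0559 and 0.0545 in KD 25-3, KD 50-2 and KD 50-5. Apoc1 fell by 3.86 on the log2 scale (SE 0.714, adjusted p = 0.0303, edgeR), and the wt library stood far above both groups at 57.3 RPKM. The knockdown libraries held 4, 1 and 1 counts of Apoc1, so the size of its difference is poorly fixed, from -4.79 without KD 25-3 to -3.27 without scr 25-2, and from -7.39 with wt added to the controls to -1.25 with limma on log2 of RPKM plus 1. Apoc1 passed the filter only through the scr libraries. It was not called without KD 25-3 (adjusted p = 0.0631), KD 50-2 (0.126) or KD 50-5 (0.0996). Apoc2, the activator of lipoprotein lipase, had a log2 difference of 0.19 (SE 0.532, adjusted p = 0.841, edgeR). Angptl8, a secreted regulator of lipoprotein lipase, had a log2 difference of 0.11 (SE 0.390, adjusted p = 0.880, edgeR).

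**Figure D4:**
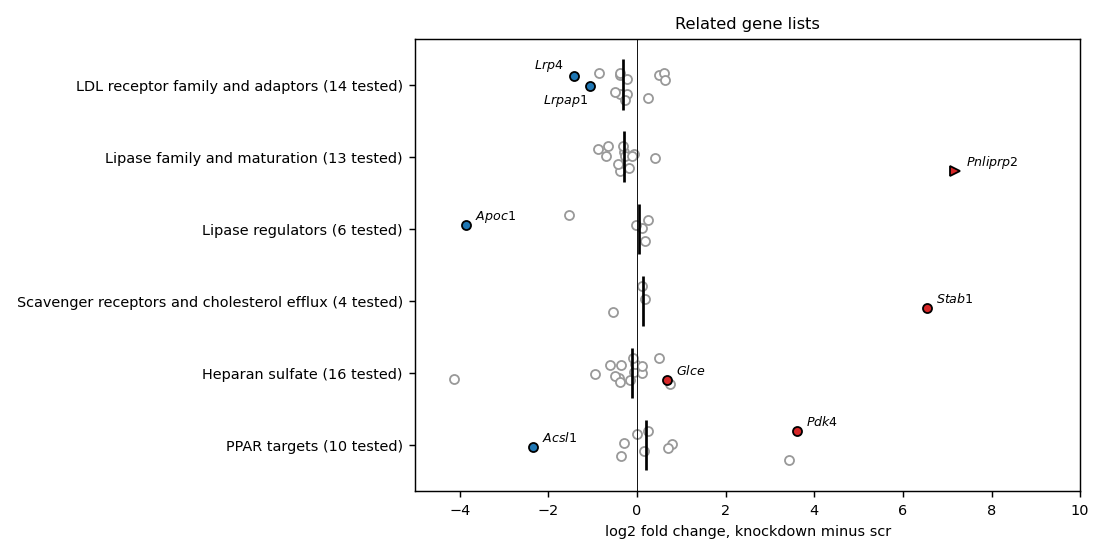
Log2 difference between knockdown and scr for the tested genes of 6 related lists, 1 point a gene, with points filled red for called higher and blue for called lower, a bar at each list's median and a triangle for Pnliprp2 at its lower bound of 7.17. Most points lie near 0 and 8 are filled.

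Of 11 scavenger receptors and cholesterol exporters, 4 were tested and 1 was called, with a median of 0.14. Stab1, a scavenger receptor of sinusoidal endothelium and macrophages, held 4 counts in each scr library and 219, 178 and 919 counts in KD 25-3, KD 50-2 and KD 50-5 (log2 difference 6.55, SE 1.11, adjusted p = 0.0240, edgeR). Stab1 was not called without scr 50-1 (adjusted p = 0.0642), KD 25-3 (0.0631) or KD 50-2 (0.0552), and it was below the filter without KD 50-5. Its log2 difference was 5.71 with wt added to the controls, 3.57 with limma on log2 of RPKM plus 0.1 and 1.25 with limma on log2 of RPKM plus 1. The fatty acid receptor gene Cd36 was below the filter, at most 0.313 RPKM. Of 19 genes of heparan sulfate chains and their core proteins, 16 were tested and 1 was called, with a median of -0.12. It was Glce, the glucuronyl epimerase, which rose by 0.67 on the log2 scale (SE 0.136, adjusted p = 0.0369, edgeR). Glce was called in 1 of the 5 fits that left out a library, that without scr 25-2, and its adjusted p in the others was 0.0738 without scr 50-1, 0.132 without KD 25-3, 0.147 without KD 50-2 and 0.0729 without KD 50-5.

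Angptl4 was set beside 16 other targets of PPAR receptors, of which 10 were tested, 1 was called higher and 1 lower, with a median of 0.21. Pdk4, a kinase that limits pyruvate oxidation, stood at 0.266 and 0.620 RPKM in scr 25-2 and scr 50-1 and at 5.13, 5.81 and 5.52 in KD 25-3, KD 50-2 and KD 50-5, and rose by 3.62 on the log2 scale (SE 0.409, adjusted p = 0.0101, edgeR). Pdk4 passed the filter only through the knockdown libraries. The log2 difference of Pdk4 was 4.35 without scr 50-1, 3.15 without scr 25-2, 2.88 with wt added to the controls and 2.18 with limma on log2 of RPKM plus 1. Acsl1, a long-chain acyl-CoA synthetase, went the other way and fell by 2.34 (SE 0.268, adjusted p = 0.0101, edgeR). Neither was called without KD 50-2 (adjusted p = 0.0555 for Pdk4 and 0.0623 for Acsl1). All of these lists were chosen with earlier results known, and the 10.6% called over all genes tested is the value beside which their counts stand.

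Markers of other cells that make Lpl were measured in the same libraries. Of 6 adipocyte markers, Fabp4 alone was over 1 RPKM, at 1.10 and 0.103 in scr 25-2 and scr 50-1 and at 27.7, 29.7 and 32.3 in KD 25-3, KD 50-2 and KD 50-5. The defining adipocyte genes Adipoq, Plin1 and Lep held at most 1 count in a library. Of 7 macrophage markers, Cd68 and Csf1r were over 1 RPKM, the summed level was 4.39 to 4.74 RPKM in scr and 9.12 to 14.1 in knockdown libraries, and Clec4f had 0 counts throughout. Fibroblast and stellate cell markers summed to 563 to 594 RPKM in scr and 409 to 573 in knockdown, nearly all of it Dcn. Their part in the results on the members was not tested.

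The genes beside each member on the chromosome were examined to see whether a member stood out from its surroundings. The 10 nearest tested genes of Lrp1, 5 on each side, had a median log2 difference of -0.32 and 1 was called, Arhgap9, which was higher by 3.06. Around Angptl4 the median was -0.01 (-0.98 to 0.71) and around Scarb1 it was 0.21 (-0.34 to 0.53), so that Angptl4 and Scarb1 lay above all 10 of their neighbours. Around Lpl the median was -0.40 and 3 of 10 were called lower, Zfp930, D130040H23Rik and Gm10033, with log2 differences of -1.01, -1.45 and -0.98, which were smaller than that of Lpl. All 3 lay on the same side of Lpl. Around Lipg, a member that was not called, the median was -0.72 and 3 of 10 were also called lower, Mbd1, Acaa2 and Dym, where 5.23% of all genes tested were called lower.

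**Figure D5:**
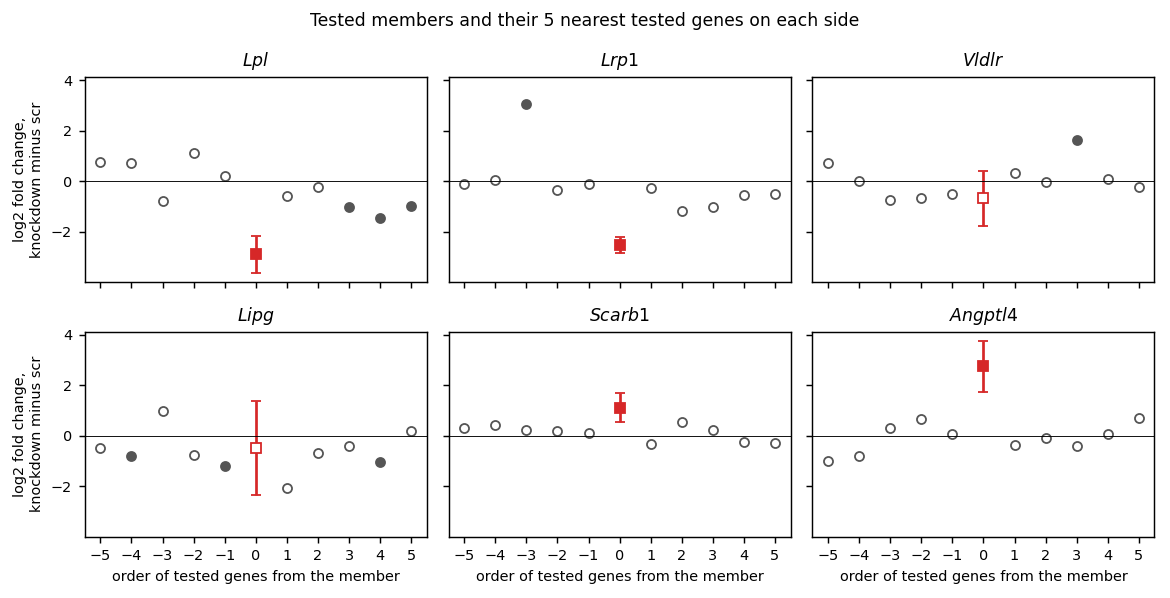
Log2 difference between knockdown and scr for each tested member (red square with its 95% interval) and for the 5 nearest tested genes on each side of it (circles, by order along the chromosome), filled where called. Lpl, Lrp1 and Angptl4 lie away from their neighbours' medians of -0.40, -0.32 and -0.01.

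The genes whose levels across the 6 libraries were most like those of each tested member were found by Pearson's r of log2 CPM (counts scaled to library size) over 11647 genes. The libraries share their group differences, so r is a description. For Lpl they were Dsc2 (r = 0.999), Pdia6 (r = 0.998) and Rpl39 (r = 0.996), and for Lrp1 they were Bax (r = 0.999), Phkb (r = 0.997) and Use1 (r = 0.997). Bax and Lrp1 were alike in pattern and not in size, since the log2 difference of Bax was -0.37. For Angptl4 they were B3galnt2 (r = 0.998), Sh3tc1 (r = 0.996) and Gatad1 (r = 0.994), and for Scarb1 they were Dlx1, Spsb1 and Prickle1 (r = 0.995 for each). For Vldlr they were Nim1k (r = 0.990), Gipc2 (r = 0.985) and Cdk18 (r = 0.983), and those of Lipg included 2610016A17Rik (r = 0.977) and Cfi (r = 0.971).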

How the data were processed

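Ribosome-depleted RNA from 6 libraries of Hepa1-6 cells was sequenced. The authors used TopHat2 (build mm10) for alignment and HTSeq with RefSeq genes for counting, and deposited the raw counts. The authors also deposited RPKM values made with TMM-scaled library sizes, which equal the count per exon length divided by 1 constant per library. Whether HTSeq used strand is not given in the sources used here. Groups were taken from the labels. Knockdown (n = 3) was compared with scr (n = 2) on counts with edgeR 4.0.16 in R 4.3.3 (TMM, quasi-likelihood test, Benjamini-Hochberg adjustment), restricted to genes that exceeded 1 RPKM in 1 or more of the libraries compared, and wt with scr in a fit of all 3 groups. SE was taken as the log2 difference divided by the square root of F. DESeq2 1.42.0 and limma 3.58.1 (log2 of RPKM plus 1 or 0.1) were alternatives. The fits were tested on simulated data. A share or level at 0 was limited by 3 counts, which covers counting error only. Named genes were all members, up to 3 called genes in each direction from each list, Lrp8, Angptl8, Apoc2, Lmf1, Cd36 and some genes not reported here, and the 3 genes most like each tested member. Neighbours and cell type markers outside this rule were named after their values were seen. The members and lists were chosen with earlier results of these data known. Overlapping genes and exons were read from GENCODE (GRCm38).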

Additional observations from a re-analysis of the deposited data

How the results depend on the processing

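Lrp1 was called lower under all 14 alternatives, Lpl and Angptl4 under 13 and Scarb1 under 11, and Vldlr and Lipg under 0 by any of edgeR, DESeq2 or limma. Leaving out 1 library gave 2 to 4 members called (2 without KD 50-2 or without KD 50-5) and 131 to 2273 genes called (131 without KD 50-2, 2273 without scr 25-2), 89 to 1146 of them higher and 42 to 1127 lower. The fits without an scr library leave 1 scr library, which is assumed to vary like the knockdown libraries. The cause of these shifts was not tested. DESeq2 called 2322 genes, 1167 higher and 1155 lower, and 807 genes were called with the number 25 or 50 as an added term, 388 of them lower. Scaling by DESeq2 size factors or by totals without Rn45s left the 4 members called. For wt against scr, DESeq2 called 128 genes (71 higher, 57 lower) and leaving out 1 scr library 4 to 19 (4 to 17 higher, 0 to 2 lower), in fits that set 1 library against 1 with the spread taken from the knockdown libraries alone. Without a filter, Lipc and Lrp2 could be fitted and were not called, and in knockdown against scr Lipg was not tested without scr 25-2.

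The sign of the log2 difference turned for genes that were not called. Angptl8 was -0.41 with wt added to the controls, and leaving out 1 library gave -0.26 to 0.62 for Angptl8 (-0.01 without KD 25-3), -0.41 to 1.27 for Apoc2 and -0.58 to 0.29 for Lrp8. In wt against scr, leaving out 1 scr library gave -0.14 to 0.79 for Lpl, -0.053 to 0.51 for Scarb1, -0.10 to 1.64 for Lipg and -0.50 to 0.60 for Vldlr. Of the related lists, DESeq2 called 5 genes in the LDL receptor family, 3 in lipases and maturation and 2 in lipase regulators. It called 1 among scavenger receptors and exporters, 3 in heparan sulfate and 4 among PPAR targets. With edgeR without KD 50-2 the counts, in the same order, were 1, 1, 0, 0, 0 and 0. Of the related genes, Lmf1 was called by DESeq2 (adjusted p = 0.0146), Stab1 was not called by limma on log2 of RPKM plus 1, and Glce was not called by limma at either pseudocount or with the added term. The number 25 or 50 is shared by knockdown and scr libraries, and with it as an added term 4 members were called. No paired analysis of library against library was possible because nothing says that this number pairs libraries, 50 stands on 1 scr and 2 knockdown libraries, and the number that follows it has 1 value in common. The number of scr libraries, 2, limits the precision of every difference, and the genes under 50 counts in most libraries (Lipc, Lrp2) were limited by depth.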
